A study of Mus musculus with 6 samples.

Results

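The miR-17-92 and miR-106b-25 polycistrons are paralogous microRNA (miRNA) clusters, each transcribed as 1 precursor that is cut into several hairpins. The 9 miRNAs described here were taken by their exact names on the array: mmu-miR-17, mmu-miR-18a, mmu-miR-19a, mmu-miR-20a, mmu-miR-19b and mmu-miR-92a of miR-17-92, and mmu-miR-106b, mmu-miR-93 and mmu-miR-25 of miR-106b-25. They are 9 of the 611 mouse miRNAs on the array. Bone-marrow-derived macrophages came from female C57BL/6 mice, and all had received lipopolysaccharide (LPS, a bacterial cell-wall component that activates macrophages) for 24 h. In the 3 KO samples the mice carried MxCre with both RBP-J alleles floxed (MxCre-RBP-Jf/f). In the 3 samples titled WT, 1 allele was floxed and the other intact (MxCre-RBP-Jf/+), so these controls were heterozygous after Cre and not untouched wild types. RBP-J is the DNA-binding partner of activated Notch receptors. Cre stood under the interferon-inducible Mx promoter and was switched on with poly(I)-poly(C) in both genotypes, so both carried Cre and had received the inducer. The genotypes differ in RBP-J, and the comparison asks how its loss alters the miRNAs of LPS-treated macrophages.

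The 6 samples occupied 1 array each of a single 1-colour slide. The array does not read Rbpj mRNA, so the deletion was not checked here. Nothing in the labels ties a replicate number to its own animal or culture, so the p-values below reflect only the spread among these 6 samples, which may be technical. All 6 myeloid marker miRNAs looked for were detected on every array, with summed scaled signals of 127 to 152 in KO and 125 to 150 in WT. None of the lymphoid (0 of 2), erythroid or platelet (0 of 3), endothelial (0 of 2), stromal (0 of 4), muscle (0 of 3) or epithelial (0 of 5) markers was detected on any array. Their sums sat at the floor value on every array of both genotypes. Along the leading principal component of the tested miRNAs KO replicate 2 was an extreme, at 4.72 against -2.05 to 0.38 for the others. WT replicate 1 was an extreme along the next component, at 4.52 against -1.85 to -0.28. Replicates 1 and 2 of both genotypes lay in the first column of the slide and replicate 3 of both in the second. KO and WT arrays lay in different rows, so row and genotype cannot be told apart.

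In mammals MYC and E2F transcription factors induce miR-17-92, and its miRNAs in turn repress E2F1, the cell-cycle inhibitor p21 and the pro-apoptotic protein BIM. The cluster is known as an oncogene in B-cell lymphoma and is needed for B-cell development in mice, and miR-17 and miR-20a restrain the differentiation of human monocytes. miR-106b-25 sits in an intron of Mcm7, which encodes a subunit of the replicative helicase, and is produced together with it. A miRNA pairs with its targets mainly through its seed, bases 2 to 8, so members with 1 seed can share targets even when they come from different clusters.

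On GRCm38.p6 the mature members of miR-17-92 lie on the plus strand at chr14:115043684-115044496, within 813 bases that partly overlap the annotated host gene Mir17hg. Those of miR-106b-25 lie on the minus strand at chr5:138165332-138165807, within 476 bases inside Mcm7. The mature sequences below are from RefSeq on GRCm38.p6, written 5′ to 3′ with the seed in capitals. They are shown because they define the seed groups that the results are sorted by, and because their near-identity bears on what a hybridisation probe can tell apart. All 9 members were matched, by taking the arm that the older array name denotes. The miR-17 seed group holds 4 members, from both clusters.
mmu-miR-17: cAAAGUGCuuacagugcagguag
mmu-miR-20a: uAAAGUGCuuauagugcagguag
mmu-miR-106b: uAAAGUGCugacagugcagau
mmu-miR-93: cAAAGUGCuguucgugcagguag
The miR-18 seed differs from the miR-17 seed at 1 base and has 1 member.
mmu-miR-18a: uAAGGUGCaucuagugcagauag
The miR-19 seed group occurs in miR-17-92 and not in miR-106b-25.
mmu-miR-19a: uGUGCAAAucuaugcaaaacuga
mmu-miR-19b: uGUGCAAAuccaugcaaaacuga
The miR-92 seed group has 1 member in each cluster.
mmu-miR-92a: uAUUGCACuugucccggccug
mmu-miR-25: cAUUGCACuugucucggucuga

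Counting from the 5′ end of the first miRNA named, miR-17 and miR-20a differ at 2 of 23 bases (C1U and C12U). miR-19a and miR-19b differ at 1 of 23 (U11C). miR-92a and miR-25 differ at 3 of the 21 bases they share from the 5′ end (U1C, C14U and C18U). A further paralogous cluster, miR-106a-363 on chromosome X, also encodes miR-19b and miR-92a with the same mature sequence. Signal for these 2 members can therefore come from either locus and cannot be assigned to miR-17-92 alone. The X-linked cluster also encodes miR-20b, which differs from miR-20a at 2 bases (U1C and U10C), and the passenger strand of the miR-17 hairpin is the other arm of the same precursor. Both are shown because their signals stand beside those of the members below.
mmu-miR-20b: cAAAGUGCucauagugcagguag
mmu-miR-17*: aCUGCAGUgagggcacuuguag

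The members divided into 6 that were measured on every array and 3 that were measured on none. A miRNA counts as detected on an array when at least 50% of the spots of a probe carry the scanner's flag for being well above background, and it was tested when at least 3 of the arrays, of either genotype, detected it. By that rule 135 of 611 miRNAs were tested. miR-20a, miR-19b and miR-92a of miR-17-92, and all 3 members of miR-106b-25, were detected on 6 of 6 arrays. miR-17, miR-18a and miR-19a were detected on 0 of 6. Intensities in this section are the scanner's background-subtracted values for the brighter probe of each miRNA, the median of 10 spots. They have not been scaled between arrays, and different probes bind with different strength, so they are signals and not amounts of RNA.

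miR-17, the name-giving member and a repressor of p21 and E2F1, gave intensities of -0.91, -2.64 and 0.17 in KO and -0.80, -0.57 and 1.07 in WT. These values scatter around 0 and the genotypes overlap. They were brighter than 37.2% of the 452 miRNAs detected on no array, so the probe read nothing that sets it apart from undetected miRNAs. The scanner software's own gene-level call also detected miR-17 on 0 of 6 arrays. Its passenger strand, miR-17*, from the same hairpin, gave 6.44, 6.34 and 8.47 in KO and 10.7, 10.7 and 12.3 in WT. That strand was also well above background on 0 arrays by the spot rule, but the gene-level call detected it on 2 KO and 3 WT arrays, and it was brighter than 99.6% of the undetected miRNAs. miR-20a, which differs from miR-17 at 2 bases, was detected throughout. The other passenger strands on the array, those of miR-18a, miR-19a, miR-20a, miR-92a, miR-106b and miR-93, were detected on 0 arrays.

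miR-18a, which represses the matrix protein gene Ctgf in mouse tumour cells, gave 3.31, 3.30 and 4.80 in KO and 3.89, 4.33 and 8.15 in WT. miR-19a gave 3.74, 2.95 and 4.94 in KO and 7.01, 5.48 and 10.3 in WT. Both sat near the negative-control spots, whose 95th percentile was 5.06 to 6.73 across the arrays, and the gene-level call detected each on 1 array, of WT. The miR-19a values did not overlap between genotypes, but they carry no scaling and lie around the background limit, so no fold is given. Other undetected miRNAs were dimmer than miR-18a in 94.0% of cases and dimmer than miR-19a in 95.8%. At this signal over background a difference in miR-17, miR-18a or miR-19a between the genotypes was not detectable.

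**Figure D1:**
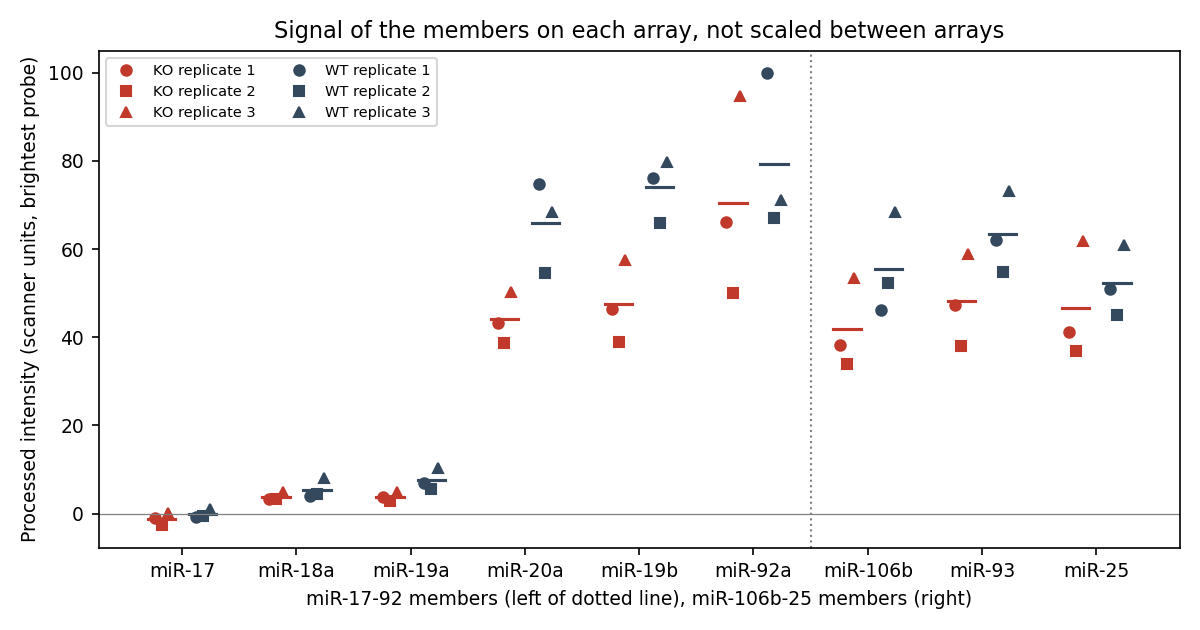
Processed intensity (scanner units, brighter probe, not scaled between arrays) of the 9 members on each array, with KO in red at the left and WT in dark blue at the right of each pair; marks are arrays and horizontal bars are group means. miR-17, miR-18a and miR-19a sit near 0, and the other 6 members lie between 33.9 and 99.8, with miR-19b and miR-20a lower on all KO arrays than on all WT arrays before scaling.

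The 6 detected members were dim to moderate on these arrays. miR-92a, which represses BIM and integrin α5, had intensities of 66.2, 50.02 and 94.8 in KO and 99.8, 67.0 and 71.0 in WT. miR-19b had 46.5, 39.0 and 57.5 in KO and 76.2, 66.0 and 79.7 in WT. miR-20a, of the p21 and E2F1 repressing seed group, had 43.2, 38.7 and 50.1 in KO and 74.7, 54.7 and 68.3 in WT. The KO and WT arrays separated for miR-19b and miR-20a and overlapped for miR-92a, where KO replicate 3 and WT replicate 1 were the bright ones. In the other cluster miR-106b had 38.2, 33.9 and 53.4 in KO and 46.1, 52.2 and 68.3 in WT. miR-93, which with miR-106b represses p21 in human cells, had 47.3, 38.1 and 59.0 in KO and 62.0, 54.9 and 73.2 in WT. miR-25, a repressor of BIM in human cells, had 41.2, 36.8 and 61.7 in KO and 50.8, 45.0 and 60.9 in WT. The genotypes overlapped for all 3 of these. The spots of these 6 probes varied by 6.0% to 9.26% within an array (median coefficient of variation over arrays), less than the arrays of 1 genotype did.

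The arrays themselves differed in brightness in the same direction. The 75th percentile over 200 probes well above background on all arrays was 227, 186 and 226 units in KO and 288, 243 and 352 in WT. Without scaling, 2 of the 6 members (miR-19b and miR-20a) were lower on every KO than on every WT array, beside 37 of 135 miRNAs (27.4%), all 37 lower in KO. The RNA input listed is the same for every array, KO and WT arrays lay in different slide rows, and the cause of the brightness difference was not tested. For a single miRNA in bulk samples, less RNA per cell and fewer cells of a type cannot be told apart. The comparisons that follow divide each array by that percentile and take log2, and values below a floor of -4.33 (log2) are raised to it. With its brighter probe, none of the 6 members reached the floor on any array. The second probes of miR-19b, miR-92a, miR-93 and miR-25 did reach it.

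Within miR-17-92, by brightest probe, miR-92a gave the brightest signal on 5 of 6 arrays, with miR-19b above it in WT replicate 3. By that measure miR-20a was the dimmest of the 3 on all arrays. The brightest-to-dimmest ratio was 1.29 to 1.89 in KO and 1.17 to 1.34 in WT. The order was less settled in the scanner software's gene-level totals. There miR-92a led on 3 of 3 KO arrays and 1 of 3 WT arrays, and miR-19b led on the other 2 WT arrays. In the totals miR-20a was dimmest only in KO replicate 3, and miR-19b or miR-92a was dimmest on the other arrays. Within miR-106b-25, miR-93 was brightest on 5 of 6 arrays by brightest probe, with miR-25 above it in KO replicate 3, whereas by the totals miR-106b led on 4 arrays and miR-93 on 2. Ratios within miR-106b-25 reached 1.24 in KO and 1.35 in WT by brightest probe. Apart from the lead of miR-92a on the KO arrays, the orders therefore depended in part on the measure used.

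The mean log2 scaled signal of each cluster's 3 tested members overlapped between genotypes. For miR-17-92 it was -2.15, -2.14 and -1.80 in KO and -1.80, -1.96 and -2.27 in WT, a difference of -0.02. For miR-106b-25 it was -2.43, -2.36 and -1.96 in KO and -2.45, -2.26 and -2.39 in WT, a difference of 0.12. KO replicate 3 was the highest KO array in both clusters. The slide columns gave opposite signs: for miR-17-92 the KO minus WT difference was -0.27 in the first column (2 arrays of each genotype) and 0.48 in the second (1 of each), and for miR-106b-25 it was -0.04 and 0.43. The median tested miRNA differed by 0.07 in the first column and 0.16 in the second.

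By seed, the 3 tested members of the miR-17 group (miR-20a, miR-106b, miR-93) averaged -2.41, -2.34 and -2.06 in KO and -2.27, -2.17 and -2.33 in WT. The difference was -0.01, and -0.15 and 0.27 within the first and second slide columns. The miR-92 group (miR-92a, miR-25) averaged -2.12, -2.12 and -1.56 in KO and -2.01, -2.14 and -2.42 in WT. Its difference was 0.26, with -0.04 in the first column and 0.86 in the second. The miR-19 group had 1 tested member, miR-19b, and the miR-18 group none. No seed group separated the genotypes.

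**Figure D2:**
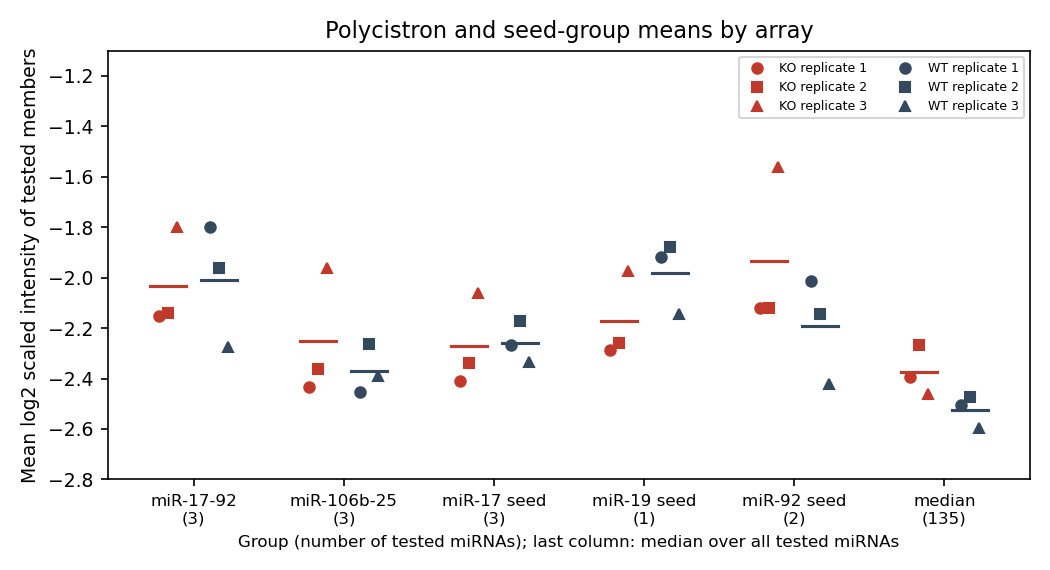
Mean log2 scaled intensity per array of the tested members of each cluster and seed group, with the number of miRNAs in brackets, and at the right the median over all 135 tested miRNAs; KO arrays in red stand left of WT arrays in dark blue, and bars are group means. KO and WT overlap in every cluster and seed group, and replicate 3, which lay in the second slide column, is the highest KO array and the lowest or second-lowest WT array in each cluster and seed group.

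Tested singly with limma across all 135 miRNAs (Benjamini-Hochberg adjustment, threshold 0.05), 0 of the 6 tested members were called, beside 0 of 135 miRNAs (0.0%). The smallest adjusted p over all 135 was 0.637. At an unadjusted p under 0.05, 0 of the 6 members passed, beside 6 of 135 miRNAs (4.44%), 5 of them higher and 1 lower in KO. On the scaled values 0 of the 6 members separated the genotypes, beside 14 of 135 miRNAs (10.4%). The 95% interval of the difference lay inside a 2-fold change either way for 6 of 6 tested members, beside 113 of 135 miRNAs (83.7%). On the scaled values a 2-fold or larger change in any of these 6 therefore lies outside the interval. The interval does not bound a change that the scaling between arrays removes.

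The median tested miRNA was 0.11 higher in KO on the log2 scale, with 97 miRNAs above WT and 38 below. The median over the 6 tested members was 0.04, with 4 above WT and 2 below. Relative to the median miRNA, 2 of the 6 were higher and 4 lower. Since the scaling sets where 0 lies, the differences of single members are given below both as fitted and relative to that median.

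miR-19b was -2.29, -2.26 and -1.97 in KO and -1.92, -1.88 and -2.15 in WT on the log2 scaled scale. Its fitted KO minus WT difference was -0.19 (SE 0.17, 95% interval -0.58 to 0.19, limma adjusted p = 0.682), or -0.30 relative to the median miRNA. miR-20a was -2.39, -2.27 and -2.17 in KO and -1.95, -2.15 and -2.37 in WT, a difference of -0.12 (SE 0.17, interval -0.52 to 0.27, limma adjusted p = 0.768), or -0.23 relative to the median. Both were below the median miRNA under all 22 alternative settings tried for each, which do not include the second slide column alone, and neither passed the test in any. Both kept that sign with their second, dimmer probe, at -0.35 for miR-19b and -0.36 for miR-20a relative to the median. That probe was well above background on 4 arrays for miR-19b and on 6 for miR-20a. The first slide column gave -0.37 for miR-19b and -0.28 for miR-20a, and the second gave 0.17 and 0.20, beside 0.07 and 0.16 for the median miRNA, so neither the sign of the difference nor that relative to the median was shared by the columns.

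miR-92a was -1.78, -1.90 and -1.25 in KO and -1.53, -1.86 and -2.31 in WT. Its difference was 0.26 (SE 0.25, interval -0.32 to 0.83, limma adjusted p = 0.719), and its 2 probes gave 0.26 and 0.19. It had the widest spread of the 6, and KO replicate 3 and WT replicate 3 carried the difference: it was -0.15 in the first column and 1.06 in the second. Relative to the median miRNA it was 0.15, but -0.04 without KO replicate 3 and -0.01 without WT replicate 3.

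In miR-106b-25, miR-106b was -2.57, -2.46 and -2.08 in KO and -2.64, -2.22 and -2.37 in WT. The difference was 0.04 (SE 0.20, limma adjusted p = 0.96). miR-93 was -2.26, -2.29 and -1.94 in KO and -2.21, -2.15 and -2.27 in WT, with a difference of 0.05 (SE 0.16, limma adjusted p = 0.925). These 2 members of the miR-17 seed group had the smallest differences of the 6. miR-25 was -2.46, -2.34 and -1.87 in KO and -2.50, -2.43 and -2.53 in WT. Its difference was 0.26 (SE 0.19, interval -0.17 to 0.70, limma adjusted p = 0.637), or 0.15 relative to the median. KO replicates 2 and 3 lay above every WT array, replicate 3 by the wider margin, and KO replicate 1 lay above 2 of the 3. Without KO replicate 3 the miR-25 value relative to the median was -0.02, and the second probe, well above background on 3 arrays, gave -0.05.

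miR-20b, the relative from the X-linked cluster, resembled miR-20a. It was -3.97, -3.65 and -3.62 in KO and -3.37, -3.50 and -3.80 in WT, a difference of -0.19 (SE 0.18, limma adjusted p = 0.719). It stood near the floor, and whether its probe also reads miR-20a was not tested. miR-92b, which shares the miR-92 seed, was at the floor on all 3 WT arrays after scaling and between -4.29 and -4.16 in KO, so its fold is not given. miR-18b, miR-363, miR-32 and miR-367, the other array miRNAs that share a seed with a member, were detected on 0 arrays. miR-106a was not analysed here.

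**Figure D3:**
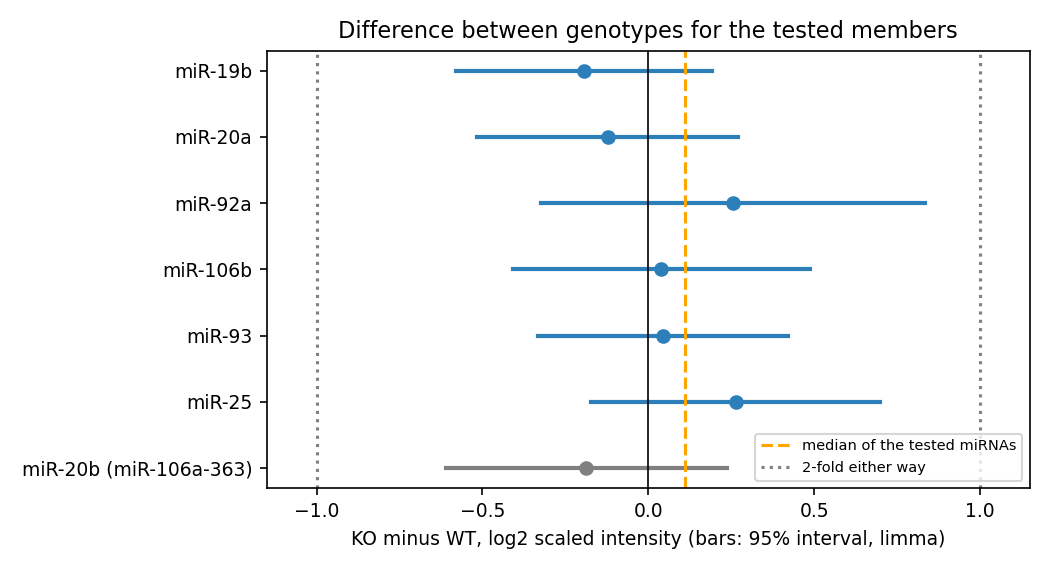
KO minus WT difference in log2 scaled intensity for the 6 tested members (blue) and miR-20b (grey); points are fitted differences and bars are 95% intervals from limma. All 7 intervals include 0 and lie within the dotted lines at a 2-fold change, and the dashed line marks the median of all tested miRNAs, 0.11.

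In a ratio between members on the same array any single scaling factor per array cancels, and a constant difference in probe strength cancels between genotypes. Quantile scaling, which uses no single factor, changes the ratios: under it 7 of 15 pairs separated, 4 of them within a cluster, beside 12.9% of all pairs of tested miRNAs. Of the 15 pairs of tested members, 4 had ratios that did not overlap between genotypes (26.7%), beside 1214 of 9045 pairs of all tested miRNAs (13.4%). The 15 pairs share 6 miRNAs and are not independent. Within a cluster 1 of 6 pairs separated (16.7%), between clusters 3 of 9 (33.3%), and among pairs with 1 seed 0 of 4. The exact two-sided permutation p of each separating pair was 0.1, the smallest that 3 against 3 arrays allow, and 0.375 after adjustment over the 15 pairs, so no pair passed 0.05.

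The pair that separated within a cluster was miR-25 over miR-93, neighbours in miR-106b-25 with different seeds. The ratio was 0.871, 0.966 and 1.05 in KO and 0.82, 0.821 and 0.833 in WT. Every KO array lay above the narrow WT range, by 1.16-fold on the geometric mean, but the separation held only for the brighter probe of each, 1 of 4 probe combinations, of which 2 use a miR-93 probe well above background on no array. The adjusted exact permutation p over the 6 within-cluster pairs was 0.4. miR-93 over miR-106b, which share a seed, had ratios of 1.24, 1.12 and 1.11 in KO and 1.35, 1.05 and 1.07 in WT, and overlapped.

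Between clusters, miR-25 over miR-19b separated most widely. Its ratio was 0.886, 0.944 and 1.07 in KO and 0.667, 0.682 and 0.765 in WT, 1.37-fold higher in KO. The log2 difference was 0.44 in the first slide column and 0.49 in the second. This pair separated in all 4 probe combinations, but only the 2 brighter probes were well above background on 6 arrays. The second miR-25 probe was so on 3 arrays and the second miR-19b probe on 4, and some of their values were raised to the floor. miR-25 over miR-20a was 0.953, 0.951 and 1.23 in KO and 0.681, 0.823 and 0.893 in WT, 1.31-fold higher, with 0.35 and 0.46 (log2) in the 2 columns. It separated in the 2 of 4 probe combinations that use the brighter miR-25 probe. miR-93 over miR-19b was 1.02, 0.977 and 1.03 in KO and 0.814, 0.831 and 0.919 in WT, 1.18-fold higher, with 0.28 and 0.16 (log2) in the columns. It separated only in the probe combinations that use the brighter miR-93 probe, and the other miR-93 probe was well above background on no array. These 3 pairs are described because their arrays did not overlap, which fixes the sign in both columns. miR-93 over miR-20a, miR-106b over miR-19b and miR-106b over miR-20a overlapped but were also higher in KO on the mean. Their log2 differences were 0.17, 0.23 and 0.16, positive in both slide columns. The mean between-cluster ratios of miR-92a to miR-93 and to miR-106b did not share that direction. miR-92a over miR-93 differed by 0.21 and miR-92a over miR-106b by 0.22 (log2, KO minus WT), and both overlapped. Their signs differed between the first and second slide columns. The values were -0.05 and 0.73 for miR-92a over miR-93, and -0.06 and 0.77 for miR-92a over miR-106b.

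The 2 within-cluster ratios of miR-92a were higher in KO on the mean without separating the genotypes. miR-92a over miR-20a was 1.53, 1.29 and 1.89 in KO and 1.34, 1.23 and 1.04 in WT. miR-92a over miR-19b was 1.42, 1.28 and 1.65 in KO and 1.31, 1.02 and 0.892 in WT. In each, 1 WT array, replicate 1, overlapped the KO range. miR-25 over miR-92a, the 2 members of the miR-92 seed group, was 0.622, 0.735 and 0.651 in KO and 0.509, 0.672 and 0.858 in WT, with a mean log2 difference of 0.01 and signs that differed between the slide columns (0.21 and -0.40).

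These counts depend on WT replicate 1, one of the arrays that stood apart. Without it, 6 of 6 within-cluster pairs and 11 of 15 pairs in all separated, beside 28.0% of all pairs of tested miRNAs under the same 3 against 2 arrays. Without KO replicate 2 it was 3 within clusters and 7 in all, beside 20.2%. Without both it was 6 and 13, beside 39.0%. Leaving out any other single array gave 1 within clusters and 4 or 5 in all, beside 20.6% to 26.3%. Without KO replicate 3 the 4 of 15 pairs (26.7%) stood beside 26.3% of all pairs. Fewer arrays per genotype separate more easily by construction, so these counts are read beside the shares given with them.

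**Figure D4:**
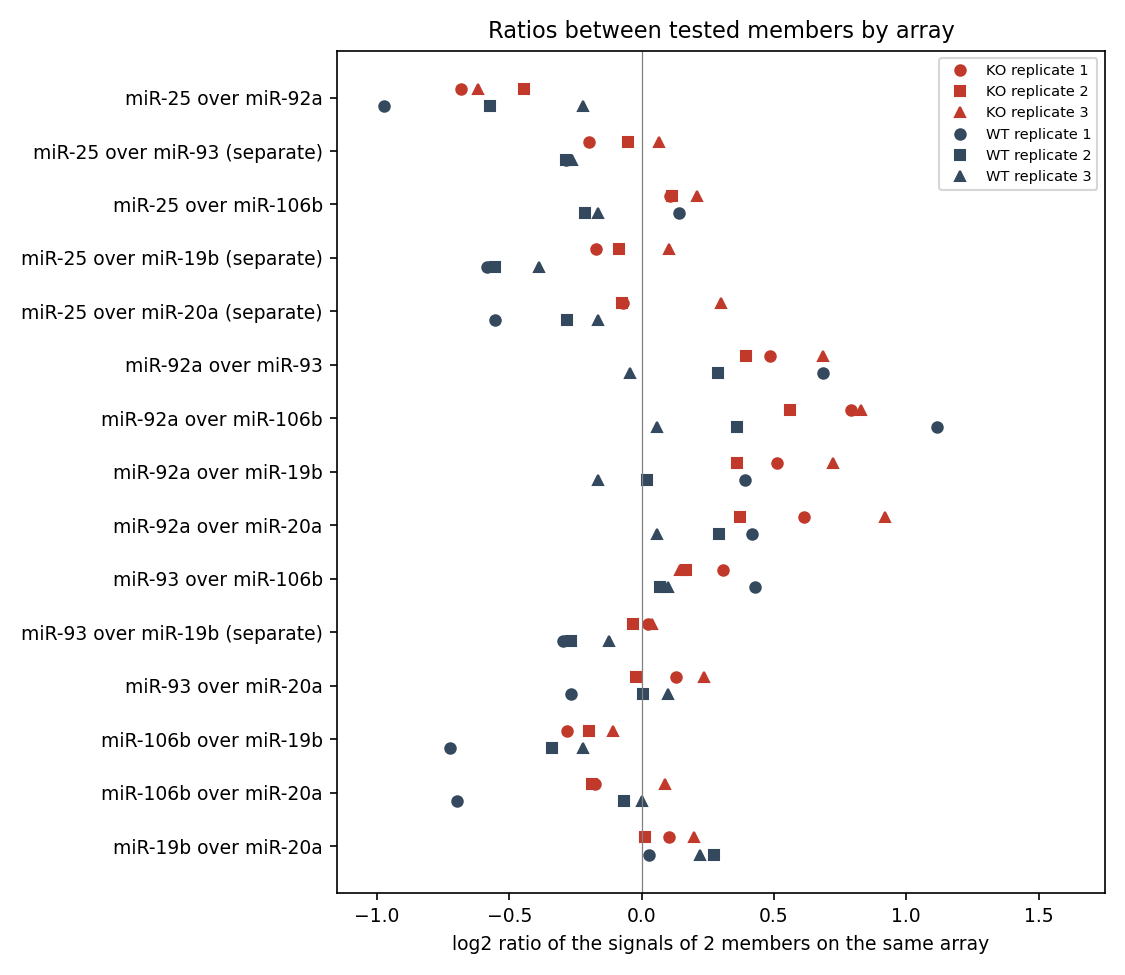
Log2 ratio of the signals of each pair of tested members on the same array, with KO arrays in red above WT arrays in dark blue for each pair. The 4 pairs marked separate have all KO arrays to the right of all WT arrays, and WT replicate 1 is the array that lies farthest from the other WT arrays in the ratios that involve miR-106b.

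The miRNAs whose profile over the 6 arrays lay nearest to the clusters included miR-15b for both. Likeness was the root-mean-square distance between log2 profiles centred on their mean, over 6 arrays and 104 candidates detected on all arrays. For miR-17-92 the nearest were miR-15b (0.0952), miR-340-3p (0.113) and miR-338-3p (0.124), beside a median candidate at 0.285. The cluster's own members lay at 0.0915 for miR-20a, 0.117 for miR-19b and 0.186 for miR-92a from their mean, so miR-15b lay nearer to that mean than 2 of its 3 members. For miR-106b-25 the nearest were miR-15b (0.107), let-7g (0.122) and let-7f (0.126), beside a median of 0.273. Its members lay at 0.0675 for miR-93, 0.0853 for miR-106b and 0.0892 for miR-25, all nearer than any other candidate. The members define the mean they are measured against, so their own distances are a description.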

How the data were processed

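Per the file headers, Agilent Feature Extraction 10.5.1.1 made the deposited spot intensity values, while the submitters' processing notes name version 9.1. These intensities are background-subtracted without normalization across arrays, so some fall below 0. The authors' series matrix holds log2 values of the gene-level totals (correlation with them 0.999 or more). Its normalization is not stated in what was used here; its column medians were 0 to 0.0288, it has no centring per miRNA that the values show, and 1-colour signals have no ratio direction. All of its columns were matched to a sample, and 0 belonged to none.

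Each of 1759 mouse probes took the median of its 5 to 20 spots, and each miRNA its brightest probe. Values were divided by the array's 75th percentile over 200 probes, floored at the 5th percentile of detected signals, log2 transformed and fitted without covariates with limma 3.58.1 in R 4.3.3 (lmFit, eBayes). Pair ratios were tested by exact permutation over arrays. Precision is limited by the number of arrays. The fit was tested on simulated data. The members, lists and named relatives were chosen with earlier results of these data known. Named are the 9 members, their passenger strands and seed relatives, and the 3 nearest profiles per cluster.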

Additional observations from a re-analysis of the deposited data

How the results depend on the processing

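Under all 21 alternatives, 0 of the 135 tested miRNAs (165 with gene-level totals, 611 without a filter, 110 when detection on all arrays was required) and 0 members were called by limma. The sign relative to the median miRNA held for miR-19b (-0.40 to -0.19) and miR-20a (-0.36 to -0.12) throughout these alternatives, but not in the second slide column alone (0.17 and 0.20 beside 0.16 for the median miRNA). It turned for the others, with the cause not tested unless given. miR-25 turned to -0.0248 with the series matrix, -0.0182 without KO replicate 3 and -0.0471 with its other probe, against 0.242 at most with 1 array left out. miR-92a turned to -0.0441 without KO replicate 3 and -0.0108 without WT replicate 3, and reached 0.320 without WT replicate 1 and 0.474 without both KO replicate 2 and WT replicate 1. With 1 array left out miR-93 ranged from -0.173 without KO replicate 3 to 0.0144 without KO replicate 2. It was -0.179 with the series matrix and 0.0118 without both KO replicate 2 and WT replicate 1, an alternative chosen after seeing the data. Without a filter the median of 611 miRNAs, most of them at the floor, became 0, which puts miR-106b at 0.0394 and miR-93 at 0.0454. Within-cluster pairs that separated numbered 1 as reported (beside 13.4% of all pairs of tested miRNAs), 4 with quantile scaling (12.9%), 2 with the series matrix (12.8%), 1 to 6 when 1 array was left out (20.2% to 28.0%), and 6 without both KO replicate 2 and WT replicate 1 (39.0%). Over all 15 member pairs the count was 4 as reported and 7 with quantile scaling. It was 4 with normexp, beside 20.6% of all pairs of tested miRNAs, and 3 with the series matrix (12.8%) or the mean over probes (13.4%). The median difference of the miR-17-92 members relative to the median miRNA ranged from -0.29 to -0.12, and that of miR-106b-25 from -0.17 to 0.05. All fitted differences moved with scaling, since the median miRNA differed by -0.31 without scaling, 0.24 with normexp and 0.01 with quantile scaling. normexp ran on median spot signals, as a mean signal column was not found. Whether replicate numbers pair the samples is not stated in the labels. Same-number correlations between KO and WT arrays were 0.17, -0.07 and 0.37, and other-number correlations were -0.29 to 0.16. With the number as a replicate block 0 members were called (miR-25 adjusted p 0.549 by limma). Signal over background limits the 3 undetected members.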
